A study of Homo sapiens with 33 samples.

Results

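RNA sequencing compared EZH2 null with wild-type (WT) human embryonic stem cells (hESCs) across 14917 autosomal genes. The RNA table held 35805 genes, of which 34520 lay on chromosomes 1 to 22, and the genes described here were the 14917 of those with a mean of at least 1 RPM over all 12 RNA libraries. RPM is the number of reads on a gene scaled to the total reads of its library, so it compares libraries and not genes of different length. The genes just inside this limit were CTD-2215E18.1, LINC01003 and WDFY3-AS1, each with a mean of 1.00 RPM. The genes just outside it were MTOR-AS1 at 0.999 RPM, EML6 at 0.998 RPM and RP11-77P6.2 at 0.998 RPM.

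All libraries came from H9 (WA09), an established hESC line grown on irradiated mouse embryonic fibroblasts, after flow sorting for SSEA4, a surface antigen of undifferentiated hESCs. The 4 genotypes were EZH2 +/+ (WT), EZH2 -/+ (Het), EZH2 -/- (null) and EZH2 -/- cells with an induced EZH2 transgene (Null+EZH2), with 3 RNA libraries for each. Per the study's methods, Cas9 and a guide RNA to an early exon shared by the EZH2 isoforms were used to shift the reading frame. A doxycycline-inducible piggyBac EZH2 transgene was put into a Het line before the second allele was targeted, and Null+EZH2 cells were grown with doxycycline. The study saw no sign of expression from the construct without the drug, and it also made null lines from which every copy was taken out. Which of these lines gave the RNA is not given in the sources used here. Null cells thus passed through 2 rounds of cloning that WT cells did not. The labels do not say how many clones gave RNA, nor whether the libraries of a genotype came from separate cultures, so the p values below measure the spread between these libraries, and clone and genotype cannot be told apart.

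EZH2 is the catalytic subunit of Polycomb repressive complex 2 (PRC2), which trimethylates lysine 27 of histone H3 (H3K27me3) together with EED and SUZ12. In hESCs the mark lies at the promoters of many developmental regulators, often beside the active mark H3K4me3, an arrangement called bivalent, and these genes are kept at low transcription. EZH1 is a related enzyme of weaker activity, and PRC1 is the complex whose CBX subunits bind the mark.

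From 25521205 to 30685614 reads lay on genes in the WT libraries and from 22800276 to 35502184 in the null libraries, so that 3 reads corresponded to 0.0528 to 0.0891 RPM in the null libraries. Over all members, log2 levels of 2 WT libraries correlated at r = 0.975 to 0.979, those of 2 null libraries at 0.966 to 0.984, and those of a WT and a null library at 0.883 to 0.919 (across genes, which are not replicates). The 10 markers of undifferentiated ESCs summed to 2425 to 3068 RPM in WT and to 3898 to 4442 RPM in the null libraries, with none at 0. Of them 7 rose and 1, SOX2, fell. Markers of other cell types were present as well. The 12 fibroblast and mesenchyme markers, which would also mark feeder cells, summed to 316 to 398 RPM in WT and 394 to 767 RPM in the null libraries, with 5 of the 9 expressed ones higher, 1 lower and none at 0. The 7 endoderm markers summed to 23.7 to 50.4 RPM in WT and 165 to 469 RPM in the null libraries, and the 8 mesoderm markers to 53.5 to 84.2 and 180 to 248 RPM, again with none at 0 in either. Only CGA, of the trophectoderm markers, was at 0 in both. In bulk RNA, more cells of a type and more RNA per cell cannot be told apart.

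EZH2 itself, the targeted gene (chromosome 7, 148807383 to 148884321), was at 68.6, 63.3 and 59.5 RPM in WT and 11.5, 8.65 and 9.68 RPM in the null libraries (log2 fold change -2.68 ± 0.17, adjusted p = 5.1e-06). The null libraries lay below the WT libraries without overlap. In Het libraries EZH2 was at 55.4, 52.3 and 45.7 RPM and in Null+EZH2 libraries at 271, 385 and 256 RPM. The gene-level value sums all exons, so transcripts with a shifted frame and any transcript of the transgene are counted with intact ones. Here and below, ± is the standard error and adjusted p is the limma p-value, adjusted by the Benjamini-Hochberg method across the 20608 genes tested.

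Of the 14917 genes, 1568 were higher in null than in WT cells (10.5% of them) and 3188 were lower (21.4%) at an adjusted p under 0.05, and 10161 (68.1%) were not called. The median log2 fold change of the genes called higher was 1.13 and that of the genes called lower was -0.92. By size, 895 called genes rose by more than 1 on the log2 scale and 1411 fell by as much, whereas 299 rose and 258 fell by more than 2, 92 and 75 by more than 3, and 38 and 18 by more than 4. In 1548 of the higher genes every null library lay above every WT library, and in 3112 of the lower genes every null library lay below. Among all members, called or not, 18.7% had every null library above every WT library and 31.7% every null library below.

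**Figure D1:**
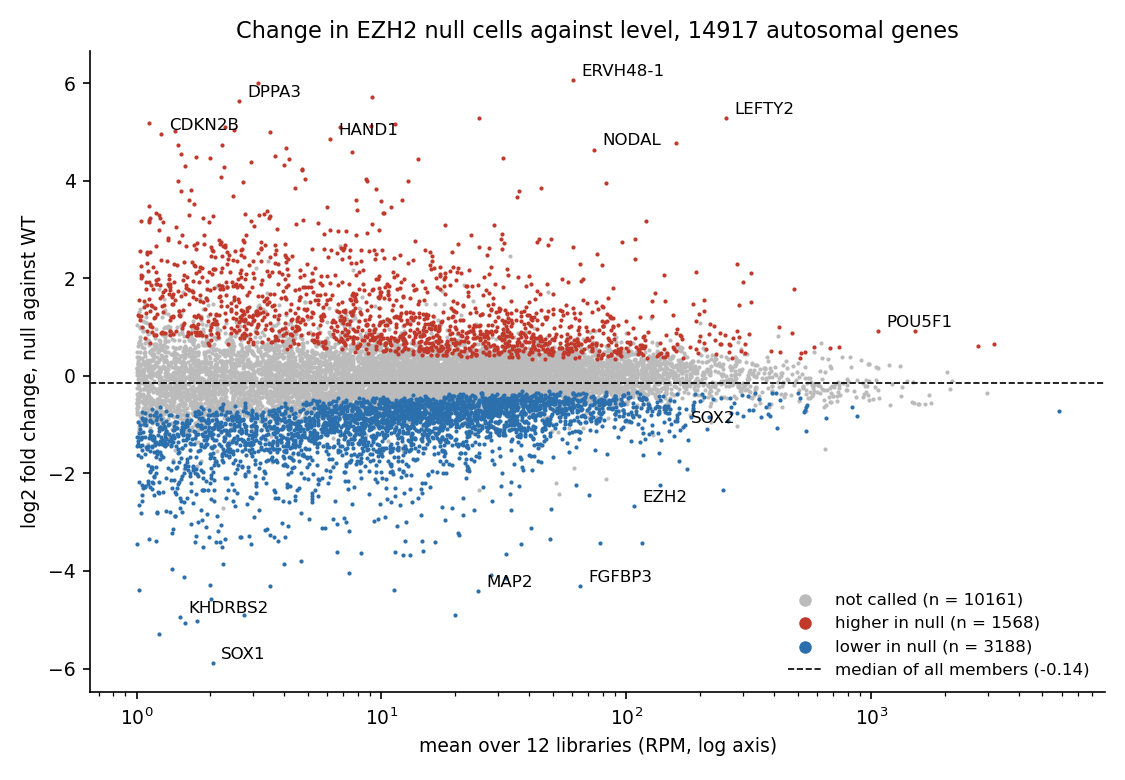
Each point is one of the 14917 genes, with its mean over the 12 libraries in RPM (log axis) against its log2 fold change in null relative to WT cells, coloured by call. Genes called higher (1568) reach past 6, genes called lower (3188) are more numerous, and the median of all genes (dashed) lies at -0.14.

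The balance of higher and lower genes depended on how libraries were scaled. The median log2 fold change of all members was -0.14 (interquartile range -0.54 to 0.24), and rescaling each library by the median ratio moved it to -0.02. After rescaling, 2252 genes were higher (15.1%) and 2250 lower (15.1%), so that the share of calls that were higher went from 33.0% to 50.0%. All 1568 genes called higher were also called after rescaling, against 2250 of the 3188 genes called lower. With the library number as a block, 2333 genes were higher (15.6%) and 4818 lower (32.3%). Leaving out null 2 reduced the calls to 1022 higher and 1961 lower, and leaving out WT 2 reduced them to 1031 and 2048. In every alternative that was run, 863 genes were higher and 1691 lower.

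Of the genes called higher, the median level was 7.30 RPM in WT, 8.88 RPM in Het, 17.7 RPM in null and 11.4 RPM in Null+EZH2 libraries. Of the genes called lower, it was 16.5, 13.2, 8.11 and 10.3 RPM in the same order. These calls were chosen on the null and WT values, and the Het and Null+EZH2 levels are given beside them as a description.

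Spread within the null libraries was uneven for some of the higher genes. The median SD of log2 level over 3 libraries was 0.20 in WT and 0.22 in null cells. Among the genes called higher, 32 (2.04%) had more than a 4-fold range over the null libraries. In 31 of these null 1 was lowest, while null 2 was highest in 25. HAND1, COL3A1, PITX1, NPPB, IGF2 and H19, described below, were among them. Of all members, 116 (0.78%) had such a range over the null libraries, with null 1 lowest in 68. Over the WT libraries, 13 of the higher genes and 99 of all members had such a range.

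PRC2 subunits other than EZH2 fell or were not called. Of the 6 core subunits on the list, RBBP7 is not autosomal. Of the 5 members, EZH2 itself included, 3 were lower (60%) and none higher, beside 21.4% and 10.5% of all members. Their median, also with EZH2, was -0.46, or -0.33 after rescaling, when 2 were lower. EZH1 was at 23.4, 33.1 and 25.9 RPM in WT and 10.2, 8.54 and 14.01 RPM in the null libraries, without overlap (log2 fold change -1.34 ± 0.21, adjusted p = 6.5e-04). EED, the subunit that binds H3K27me3, was at 22.7, 22.2 and 23.3 RPM in WT and 15.8, 15.6 and 18.3 RPM in the null libraries and was lower without overlap (log2 fold change -0.46 ± 0.13, adjusted p = 0.018). The call of EED was lost without null 1, null 2, WT 1 or WT 3 (adjusted p = 0.053 to 0.075) and after median ratio rescaling (adjusted p = 0.084). SUZ12, which holds the complex together, was at 26.8, 29.2 and 20.2 RPM in WT and 24.3, 23.4 and 21.2 RPM in the null libraries, overlapping (log2 fold change -0.13 ± 0.22, adjusted p = 0.68). RBBP4, a histone chaperone, was at 233, 242 and 244 RPM in WT and 207, 201 and 196 RPM in the null libraries, without overlap but short of the threshold (log2 fold change -0.25 ± 0.11, adjusted p = 0.089, and 0.028 with the block).

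Among the 7 accessory subunits, which direct PRC2 to its sites, 2 were lower (28.6%) and none higher, beside 21.4% and 10.5% of all members. MTF2 was at 48.98, 58.5 and 50.6 RPM in WT and 40.8, 36.6 and 33.2 RPM in the null libraries (log2 fold change -0.51 ± 0.14, adjusted p = 0.017), without overlap, and its call was lost without null 2, null 3 or WT 2 (adjusted p = 0.055 to 0.077) and after median ratio rescaling (adjusted p = 0.077). C17orf96, also called EPOP, was at 42.8, 26.96 and 39.1 RPM in WT and 16.04, 14.7 and 30.7 RPM in the null libraries (log2 fold change -0.88 ± 0.29, adjusted p = 0.037), with overlap, and its call was lost without null 1, null 2, WT 1 or WT 3 (adjusted p = 0.10 to 0.15) and after median ratio rescaling (adjusted p = 0.063). JARID2, which helps recruit PRC2, was at 129, 131 and 118 RPM in WT and 203, 180.1 and 149 RPM in the null libraries, without overlap but not called (log2 fold change 0.48 ± 0.19, adjusted p = 0.068); it was called higher after rescaling (adjusted p = 0.02) and with the block (adjusted p = 0.004).

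Of the 20 PRC1 subunits, 1 was higher (5%) and 3 were lower (15%), beside 10.5% and 21.4% of all members. The median, -0.10, or 0.02 after rescaling, changed sign with the scaling. BMI1, a core subunit named PCGF4 in the PCGF series, was at 5.91, 9.03 and 5.97 RPM in WT and 33.6, 34.7 and 20.8 RPM in the null libraries, and the null libraries lay above WT without overlap (log2 fold change 2.07 ± 0.33, adjusted p = 6.8e-04). Its row overlaps the read-through gene COMMD3-BMI1, so their reads cannot be separated. BMI1 was at 6.07, 5.95 and 3.80 RPM in the Null+EZH2 libraries. CBX7, a subunit that reads H3K27me3, was at 6.44, 5.22 and 6.16 RPM in WT and 1.88, 2.08 and 3.38 RPM in the null libraries (log2 fold change -1.28 ± 0.33, adjusted p = 0.011). PHC2 was at 63.9, 39.6 and 43.1 RPM in WT and 22.7, 25.1 and 18.9 RPM in the null libraries (log2 fold change -1.11 ± 0.26, adjusted p = 0.0069), and YAF2 at 6.39, 8.72 and 5.92 RPM in WT and 2.90, 2.98 and 2.91 RPM in the null libraries (log2 fold change -1.21 ± 0.20, adjusted p = 8.2e-04). None of these 3 overlapped between the groups. With the block, 3 PRC1 genes were higher and 5 lower. A list of H3K27 and H3K4 enzymes had 9 expressed members. KDM5B, an H3K4 demethylase, was the only one called and was lower, at 146, 182 and 143 RPM in WT and 109, 87.8 and 82.6 RPM in the null libraries (log2 fold change -0.75 ± 0.20, adjusted p = 0.013). Its call was lost without null 2 or WT 2 (adjusted p = 0.051 to 0.062), and with the block 1 of the 9 was higher and 3 lower.

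The 12 genes with the most positive log2 fold change among those called without overlap were ERVH48-1, GNA14, DNMT3L, DPPA3, LEFTY2, RP4-559A3.6, AADACL3, CYP2B6, HPGD, NPPB, VAV1 and EBF2. ERVH48-1, a gene of retroviral envelope origin, was at 2.29, 4.03 and 1.86 RPM in WT and 121, 153 and 316 RPM in the null libraries (log2 fold change 6.07 ± 0.48, adjusted p = 9.4e-06). DNMT3L, the cofactor of the de novo DNA methyltransferases that has no catalytic activity of its own, was at 0.488, 0.355 and 0.415 RPM in WT and 17.3, 26.3 and 43.4 RPM in the null libraries (log2 fold change 5.71 ± 0.56, adjusted p = 3.5e-05). It overlaps AP001059.5, and the library kit did not keep strand. GNA14, a Gq-type G protein subunit, was at 0.133, 0.0761 and 0 RPM in WT and 10.9, 10.4 and 9.38 RPM in the null libraries (log2 fold change 6.01 ± 0.53, adjusted p = 2.0e-05), and it overlaps the antisense gene GNA14-AS1. Except for LEFTY2, all 12 were below 5 RPM in every WT library. Those with a mean under 1 RPM in WT passed the limit through other genotypes, so their direction is no support. The same holds for lower genes with a mean under 1 RPM in the null libraries.

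DPPA3, a marker of germ cells and of naive pluripotency, was at 0.0888, 0 and 0.131 RPM in WT and 4.36, 8.504 and 13.9 RPM in the null libraries (log2 fold change 5.64 ± 0.45, adjusted p = 9.4e-06). AADACL3 had 1 read in the WT libraries together and was at 2.90, 5.27 and 3.62 RPM in the null libraries, a null to WT ratio of 514 (95% counting interval 91.96 to 20354). CYP2B6, a cytochrome P450, was at 0.644, 0.152 and 0.437 RPM in WT and 21.95, 15.04 and 14.2 RPM in the null libraries (log2 fold change 5.18 ± 0.67, adjusted p = 2.0e-04). HPGD, which inactivates prostaglandins, was at 0.733, 1.24 and 0.524 RPM in WT and 26.1, 35.8 and 31.7 RPM in the null libraries (log2 fold change 5.13 ± 0.49, adjusted p = 3.3e-05). VAV1, an exchange factor of blood cells, was at 0.0666, 0.0507 and 0.109 RPM in WT and 5.14, 4.56 and 8.49 RPM in the null libraries (log2 fold change 5.09 ± 0.44, adjusted p = 1.7e-05), and EBF2, a transcription factor, at 0.266, 0.152 and 0.0437 RPM in WT and 7.74, 10.2 and 5.82 RPM in the null libraries (log2 fold change 5.05 ± 1.10, adjusted p = 0.0046). NPPB, a natriuretic peptide, was at 0.0888, 0.761 and 0.219 RPM in WT and 3.41, 45.9 and 13.1 RPM in the null libraries (log2 fold change 5.11 ± 1.27, adjusted p = 0.0095). Null 2 was far above null 1 for NPPB, and its call was lost by voom on the recovered reads (adjusted p = 0.058).

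**Figure D2:**
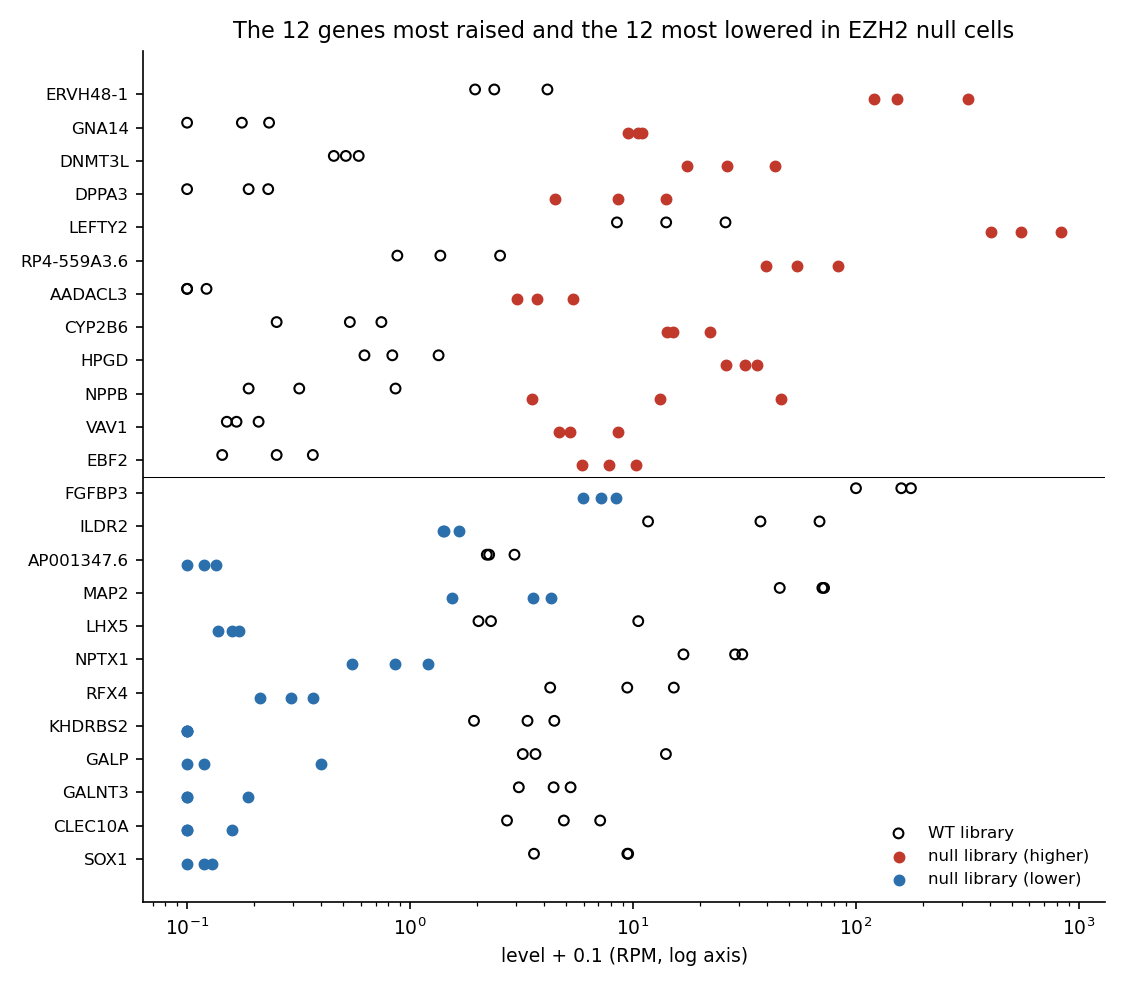
Level of each gene plus 0.1 RPM on a log axis, in the 3 WT libraries (open circles) and the 3 null libraries (filled), for the 12 genes with the most positive and the 12 with the most negative log2 fold change. The groups do not overlap in any of them, as the rule for choosing them required, and NPPB spans 3.41 to 45.9 RPM within the null libraries.

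The 12 most negative were SOX1, CLEC10A, GALNT3, GALP, KHDRBS2, RFX4, NPTX1, LHX5, MAP2, AP001347.6, ILDR2 and FGFBP3. SOX1, a transcription factor that marks neural progenitors, was at 9.41, 9.33 and 3.50 RPM in WT and had 2 reads in the null libraries together, a WT to null ratio of 526 (95% counting interval 145 to 4346). CLEC10A, a lectin of macrophages, also had 2 reads in the null libraries against 4.80, 7.02 and 2.62 RPM in WT, a ratio of 338 (95% counting interval 93.3 to 2801). KHDRBS2, a neuronal RNA-binding protein, had no read in any null library and 3.26, 4.34 and 1.84 RPM in WT, so it was at least 47.6-fold lower, taking 3 reads per library as the limit. AP001347.6, which overlaps LIPI, had 3 reads in the null libraries and 2.11, 2.84 and 2.16 RPM in WT, a ratio of 113 (95% counting interval 38.2 to 549).

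Several of the other genes of this group act in neurons or the neural tube. RFX4, a transcription factor of the neural tube, was at 9.32, 15.1 and 4.15 RPM in WT and 0.194, 0.113 and 0.267 RPM in the null libraries (log2 fold change -4.90 ± 0.41, adjusted p = 1.2e-05). NPTX1, a neuronal pentraxin of synapses, was at 28.6, 16.7 and 30.8 RPM in WT and 0.756, 0.451 and 1.10 RPM in the null libraries (log2 fold change -4.90 ± 0.62, adjusted p = 1.8e-04), and LHX5, a forebrain homeobox factor, at 10.5, 1.93 and 2.21 RPM in WT and 0.0704, 0.0375 and 0.0594 RPM in the null libraries (log2 fold change -4.56 ± 0.89, adjusted p = 0.0024). MAP2, a microtubule protein of dendrites, was at 71.8, 70.6 and 45.4 RPM in WT and 4.20, 1.45 and 3.47 RPM in the null libraries (log2 fold change -4.42 ± 0.46, adjusted p = 5.9e-05). FGFBP3, a binding protein of fibroblast growth factors, was the most abundant of the 12 in WT at 99.9, 176 and 159.6 RPM in WT and 7.09, 5.88 and 8.31 RPM in the null libraries (log2 fold change -4.31 ± 0.30, adjusted p = 5.1e-06), and it overlaps RP11-402D21.2. GALNT3, GALP and ILDR2 fell as well, with log2 fold changes of -5.07 ± 0.37, -5.03 ± 0.64 and -4.38 ± 0.51.

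Pluripotency genes were mostly higher in null cells. Of 28 genes on the list 27 were expressed, 18 rose and 2 fell, with a median of 1.44, or 1.57 after rescaling, beside 10.5% and 21.4% of all members. Here and below, expressed means among the 14917 genes, and counts of list members are to be read beside these 10.5% and 21.4%. List counts include members under 1 RPM in WT or in null cells, which passed the limit through other genotypes. The direction of such members is no support. POU5F1, NANOG, PRDM14 and TDGF1 are named as defining markers of hESCs. POU5F1 was at 632, 617 and 792 RPM in WT and 1238, 1119 and 1524 RPM in the null libraries (log2 fold change 0.92 ± 0.16, adjusted p = 0.001), and NANOG at 22.4, 23.96 and 20.3 RPM in WT and 92.4, 84.5 and 87.5 RPM in the null libraries (log2 fold change 1.98 ± 0.38, adjusted p = 0.0021). Neither overlapped. PRDM14 was at 52.3, 32.4 and 43.7 RPM in WT and 136, 108 and 102 RPM in the null libraries (log2 fold change 1.44 ± 0.32, adjusted p = 0.0048) and TDGF1, the NODAL coreceptor, at 67.4, 60.6 and 73.01 RPM in WT and 303, 291 and 279 RPM in the null libraries (log2 fold change 2.12 ± 0.21, adjusted p = 4.1e-05). SOX2, the partner of POU5F1, moved the other way, at 219, 203 and 249 RPM in WT and 135, 88.02 and 105 RPM in the null libraries (log2 fold change -1.05 ± 0.21, adjusted p = 0.0026), and so did ZIC2 at 115, 88.7 and 116 RPM in WT and 54.1, 27.8 and 33.1 RPM in the null libraries (log2 fold change -1.52 ± 0.23, adjusted p = 5.1e-04). LIN28A, an RNA-binding protein of stem cells, overlapped between the groups at 1034, 842 and 1068 RPM in WT and 939, 894 and 822 RPM in the null libraries (log2 fold change -0.14 ± 0.15, adjusted p = 0.5). DNMT3B, a DNA methyltransferase, was at 549.7, 309 and 458 RPM in WT and 787, 624 and 636 RPM in the null libraries, above WT in every library but not called (log2 fold change 0.67 ± 0.31, adjusted p = 0.12, and 0.027 with the block). With the block 19 genes of the list were higher and 4 lower.

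NODAL and its inhibitors were among the genes of this list with the largest increase. NODAL, a TGF-beta family ligand, was at 10.99, 9.46 and 4.15 RPM in WT and 142, 226 and 218 RPM in the null libraries (log2 fold change 4.64 ± 0.80, adjusted p = 0.0011). LEFTY1, a secreted NODAL inhibitor, was at 18.5, 8.77 and 8.76 RPM in WT and 275, 351 and 305 RPM in the null libraries (log2 fold change 4.77 ± 1.24, adjusted p = 0.012), and LEFTY2 at 8.37, 25.9 and 13.98 RPM in WT and 401, 831 and 551 RPM in the null libraries (log2 fold change 5.29 ± 0.89, adjusted p = 9.8e-04). LEFTY1 and LEFTY2 are near-identical neighbours, so reads may be split between them, and RP4-559A3.6, among the 12 most positive genes, overlaps LEFTY2. Het levels of LEFTY2 were 43.9, 471 and 26.1 RPM, with Het 2 inside the null range, and Null+EZH2 levels were 128, 478 and 96.5 RPM.

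FGF ligands and the feedback genes of ERK signaling rose in 12 of 20 expressed members (60%) and none fell, beside 10.5% and 21.4% of all members. The median was 1.75, or 1.87 after rescaling. FGF8 was at 2.26, 1.75 and 1.46 RPM in WT and 18.2, 29.9 and 21.2 RPM in the null libraries (log2 fold change 3.58 ± 0.64, adjusted p = 0.0015). FGF4, chosen after its values were seen, was at 7.77, 7.66 and 3.999 RPM in WT and 21.1, 23.1 and 27.3 RPM in the null libraries (log2 fold change 1.92 ± 0.39, adjusted p = 0.0032). SPRY4, an inhibitor induced by the pathway, was at 19.4, 15.6 and 12.7 RPM in WT and 100.4, 118 and 86.3 RPM in the null libraries (log2 fold change 2.68 ± 0.57, adjusted p = 0.004), the ETS factor ETV4 at 30.7, 32.03 and 28.2 RPM in WT and 130.1, 132 and 183 RPM in the null libraries (log2 fold change 2.27 ± 0.40, adjusted p = 0.0013), and IER3 at 10.3, 9.69 and 7.91 RPM in WT and 53.4, 81.6 and 79.7 RPM in the null libraries (log2 fold change 2.91 ± 0.50, adjusted p = 0.0011). None of these 5 overlapped. EGR1, an immediate early gene, ranged from 21.3 to 146 RPM over the WT libraries alone and was not called (null 70.98, 131 and 153 RPM, log2 fold change 0.88 ± 0.66, adjusted p = 0.33).

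Primitive streak genes mark the cells that leave the epiblast at gastrulation. They were higher in 9 of 17 expressed members (52.9%) and lower in 1 (5.88%), beside 10.5% and 21.4% of all members. The median was 1.92, or 2.04 after rescaling. LHX1 was at 1.24, 0.558 and 0.0437 RPM in WT and 7.56, 18.6 and 10.4 RPM in the null libraries (log2 fold change 4.51 ± 0.93, adjusted p = 0.0034). T (brachyury) was at 6.37, 4.51 and 2.29 RPM in WT and 17.3, 30.6 and 28.8 RPM in the null libraries (log2 fold change 2.58 ± 0.75, adjusted p = 0.021), without overlap, and its call was lost without null 2, null 3, WT 2 or WT 3 (adjusted p = 0.052 to 0.077). MIXL1 was at 20.6, 13.998 and 7.01 RPM in WT and 60.9, 85.99 and 65.9 RPM in the null libraries, without overlap but short of the threshold (log2 fold change 2.46 ± 0.91, adjusted p = 0.056, and 0.0092 with the block). SP5 overlapped at 72.4, 68.3 and 64.2 RPM in WT and 40.1, 48.4 and 76.3 RPM in the null libraries (log2 fold change -0.37 ± 0.28, adjusted p = 0.35). WNT3A was the 1 gene called lower, at 2.82, 4.49 and 1.05 RPM in WT and 0.563, 0.488 and 0.772 RPM in the null libraries (log2 fold change -1.83 ± 0.61, adjusted p = 0.037), a call lost without null 1, null 2, null 3, WT 1 or WT 2 (adjusted p = 0.059 to 0.15), with a pseudocount of 0.01 RPM (adjusted p = 0.053) and with no filter on low values (adjusted p = 0.055). EVX1, WNT3, FGF4, FGF8, CDX1, FOXH1 and NODAL were the other genes that rose.

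Of the 14 expressed endoderm genes, 9 rose (64.3%) and 1 fell (7.14%), beside 10.5% and 21.4% of all members. The median was 1.87, or 1.99 after rescaling. The count of 9 rested on single libraries: 2 rose without null 2 and 5 without WT 3. CER1, a secreted antagonist of NODAL and BMP, was at 16.4, 15.3 and 3.06 RPM in WT and 116, 308 and 84.8 RPM in the null libraries (log2 fold change 3.96 ± 1.32, adjusted p = 0.038), a call lost without null 1, null 2, null 3, WT 1, WT 2 or WT 3 (adjusted p = 0.055 to 0.13), with no filter on low values (adjusted p = 0.054) and by voom on the recovered reads (adjusted p = 0.054). GATA6 was at 3.42, 2.74 and 1.42 RPM in WT and 21.004, 45.6 and 20.9 RPM in the null libraries (log2 fold change 3.46 ± 0.81, adjusted p = 0.0071), GATA4 at 3.42, 2.84 and 1.70 RPM in WT and 11.8, 38.4 and 17.9 RPM in the null libraries (log2 fold change 2.93 ± 0.80, adjusted p = 0.015) and SOX17 at 7.19, 4.72 and 3.45 RPM in WT and 16.6, 29.2 and 15.8 RPM in the null libraries (log2 fold change 1.99 ± 0.56, adjusted p = 0.018). These 3 transcription factors did not overlap between groups, and the calls of GATA4 and SOX17 were lost, respectively, without null 2 or WT 3 (adjusted p = 0.054 to 0.07), and without null 2, WT 2 or WT 3 (adjusted p = 0.053 to 0.076). APOA2, an apolipoprotein of yolk sac and liver, was at 0.311, 0.330 and 0.415 RPM in WT and 2.71, 5.41 and 5.46 RPM in the null libraries (log2 fold change 3.30 ± 0.50, adjusted p = 5.2e-04). FOXA2 was at 11.3, 6.52 and 6.23 RPM in WT and 23.3, 19.3 and 12.8 RPM in the null libraries, without overlap, but was not called (log2 fold change 1.20 ± 0.60, adjusted p = 0.15). KIT, a receptor tyrosine kinase, was lower at 21.2, 19.6 and 16.4 RPM in WT and 11.8, 13.9 and 8.16 RPM in the null libraries (log2 fold change -0.77 ± 0.24, adjusted p = 0.026), a call lost without null 3, WT 1 or WT 2 (adjusted p = 0.077 to 0.10) and after median ratio rescaling (adjusted p = 0.065). The summed endoderm markers given above moved with this list, 5 of the 7 being called higher, and their part in the result was not tested. The Het libraries were uneven too, with CER1 at 36.6, 358 and 2.51 RPM and summed endoderm markers from 15.8 to 457 RPM.

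Cardiac and lateral mesoderm genes were higher in 5 of 15 expressed members (33.3%) and lower in 2 (13.3%), beside 10.5% and 21.4% of all members. The median was 0.34, or 0.47 after rescaling, and with the block 7 were higher and 4 lower. HAND1, a transcription factor of heart and extraembryonic mesoderm, was at 0.488, 0.761 and 0.153 RPM in WT and 2.69, 35.9 and 31.3 RPM in the null libraries (log2 fold change 4.86 ± 0.88, adjusted p = 0.0016). Null 1 lay far below null 2 and null 3 but above every WT library. TBX3 was at 1.04, 1.47 and 0.503 RPM in WT and 7.12, 15.97 and 10.4 RPM in the null libraries (log2 fold change 3.38 ± 0.50, adjusted p = 4.4e-04), BMP4 at 1.98, 3.52 and 2.03 RPM in WT and 12.6, 27.2 and 29.9 RPM in the null libraries (log2 fold change 3.11 ± 0.33, adjusted p = 6.0e-05), and PDGFRA, a receptor of early mesoderm, at 3.71, 4.56 and 2.05 RPM in WT and 17.9, 25.9 and 14.8 RPM in the null libraries (log2 fold change 2.503 ± 0.40, adjusted p = 6.9e-04), all without overlap. MYL7, an atrial myosin light chain, was at 1.40, 4.16 and 2.69 RPM in WT and 5.17, 31.1 and 17.2 RPM in the null libraries (log2 fold change 2.44 ± 0.70, adjusted p = 0.02), a call lost without null 2, null 3 or WT 1 (adjusted p = 0.063 to 0.094). MEIS2 fell, at 26.5, 40.4 and 20.96 RPM in WT and 2.02, 5.22 and 4.10 RPM in the null libraries (log2 fold change -2.97 ± 0.62, adjusted p = 0.0037), and so did NR2F2, at 4.995, 6.34 and 1.70 RPM in WT and 0.598, 1.13 and 0.475 RPM in the null libraries (log2 fold change -2.30 ± 0.54, adjusted p = 0.0066), although NR2F2 lost its call with a pseudocount of 0.01 RPM (adjusted p = 0.062). KDR overlapped at 46.7, 57.6 and 38.2 RPM in WT and 79.4, 63.8 and 41.4 RPM in the null libraries (log2 fold change 0.34 ± 0.24, adjusted p = 0.3), and ACTC1, at 18.7, 24.2 and 21.4 RPM in WT and 13.9, 260.1 and 96.8 RPM in the null libraries, was high in null 2 and null 3 only and was not called (log2 fold change 1.72 ± 0.73, adjusted p = 0.093).

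Genes of mesenchyme and of epithelium were both among the higher ones. Of 29 expressed genes of mesenchyme and extracellular matrix, 11 were higher (37.9%) and 5 lower (17.2%), beside 10.5% and 21.4% of all members. The share lower was thus below that of all members. The median was 0.70, or 0.82 after rescaling, and with the block 16 were higher and 8 lower. TWIST1, a transcription factor of mesenchyme, was at 0.155, 0.304 and 0.240 RPM in WT and 5.61, 7.96 and 8.34 RPM in the null libraries (log2 fold change 4.48 ± 0.31, adjusted p = 5.1e-06). COL6A3, a collagen VI chain, was at 1.89, 2.79 and 0.983 RPM in WT and 10.2, 57.8 and 30.6 RPM in the null libraries (log2 fold change 3.84 ± 0.51, adjusted p = 2.4e-04), and COL3A1, the collagen of loose connective tissue, at 2.198, 3.96 and 0.153 RPM in WT and 4.70, 109 and 47.8 RPM in the null libraries (log2 fold change 4.46 ± 1.18, adjusted p = 0.013). Null 1 lay far below null 2 and null 3 for COL3A1, and its call was lost without null 2 or WT 3 (adjusted p = 0.055 to 0.065). Its Null+EZH2 levels were 0.0514, 0.0268 and 0.600 RPM. The feeder-like markers moved with these genes, and COL3A1, COL6A3 and TWIST1 are among them. Their part in the result was not tested.

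The 5 lower genes of this list were ZEB2, ZEB1, CDH2, VIM and COL1A2. ZEB2, a repressor of epithelial genes, was at 65.03, 60.7 and 34.4 RPM in WT and 6.70, 8.60 and 5.94 RPM in the null libraries (log2 fold change -2.86 ± 0.33, adjusted p = 1.0e-04). CDH2, or N-cadherin, was at 168, 176 and 146 RPM in WT and 65.7, 87.9 and 44.1 RPM in the null libraries (log2 fold change -1.36 ± 0.22, adjusted p = 8.3e-04), the intermediate filament VIM at 537, 719.9 and 787 RPM in WT and 270.1, 365 and 299.6 RPM in the null libraries (log2 fold change -1.12 ± 0.24, adjusted p = 0.0044), and COL1A2, a collagen I chain, at 159, 198 and 188 RPM in WT and 62.03, 125 and 81.6 RPM in the null libraries (log2 fold change -1.07 ± 0.23, adjusted p = 0.0044). None of these 4 overlapped. ZEB1 was at 7.28, 12.4 and 2.91 RPM in WT and 3.29, 2.40 and 1.28 RPM in the null libraries (log2 fold change -1.52 ± 0.48, adjusted p = 0.03), with overlap, and its call was lost without null 2, null 3, WT 1 or WT 2 (adjusted p = 0.065 to 0.14) and by voom on the recovered reads (adjusted p = 0.062). SPARC was not called, at 169, 197 and 202 RPM in WT and 198, 373 and 272 RPM in the null libraries (log2 fold change 0.52 ± 0.20, adjusted p = 0.066).

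Of the 14 epithelial genes, all expressed, 9 were higher (64.3%) and 2 lower (14.3%), beside 10.5% and 21.4% of all members. The median was 1.31, or 1.43 after rescaling. CLDN7, a tight junction claudin, was at 2.09, 1.67 and 2.95 RPM in WT and 24.98, 41.3 and 45.4 RPM in the null libraries (log2 fold change 3.99 ± 0.32, adjusted p = 9.4e-06), GRHL2, a regulator of epithelial genes, at 0.777, 0.609 and 0.918 RPM in WT and 4.96, 6.57 and 4.90 RPM in the null libraries (log2 fold change 2.69 ± 0.36, adjusted p = 2.7e-04), and ESRP1, an epithelial splicing regulator, at 11.01, 7.33 and 12.04 RPM in WT and 67.8, 60.5 and 54.4 RPM in the null libraries (log2 fold change 2.60 ± 0.19, adjusted p = 6.2e-06). CDH1, or E-cadherin, was chosen after its values were seen and was at 39.4, 29.3 and 52.9 RPM in WT and 105, 119 and 128 RPM in the null libraries (log2 fold change 1.57 ± 0.24, adjusted p = 5.9e-04). KRT8 and KRT18, keratins that pair into filaments and lie side by side, rose with log2 fold changes of 1.78 ± 0.31 and 1.92 ± 0.27. CLDN3 fell, at 5.42, 5.30 and 6.21 RPM in WT and 1.37, 1.39 and 2.49 RPM in the null libraries (log2 fold change -1.68 ± 0.29, adjusted p = 0.0011), as did ITGA6 (log2 fold change -0.88 ± 0.18, adjusted p = 0.0038).

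**Figure D3:**
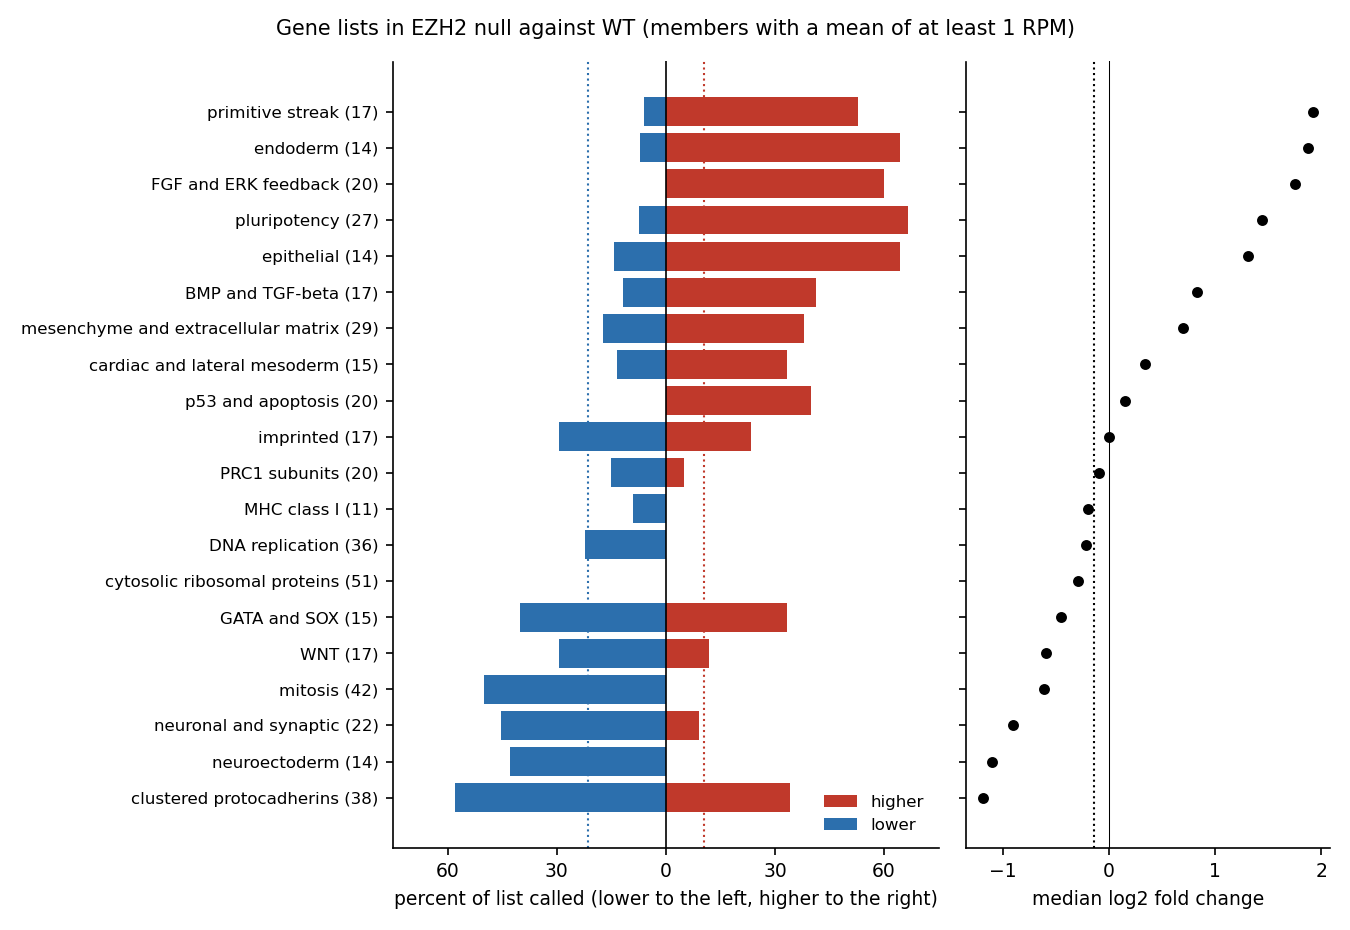
Percent of the expressed members of each gene list called lower (left) or higher (right), and on the right panel the list's median log2 fold change, for the 20 lists with at least 10 expressed members (number in brackets). Dotted lines give all 14917 genes, 10.5% higher, 21.4% lower and a median of -0.14. Primitive streak, endoderm, FGF and pluripotency lists have the most positive medians, and protocadherin, neuroectoderm and neuronal lists the most negative.

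Neuroectoderm genes were lower in null cells or not called. Of 40 on the list 14 were expressed, of which 6 fell (42.9%) and none rose, beside 21.4% and 10.5% of all members. The median was -1.11, or -0.98 after rescaling, and with the block 7 fell and 1 rose. The 6 were SOX1, LHX5, PAX3, PAX6, POU3F1 and POU3F2. Of these, SOX1, LHX5, PAX3 and POU3F2 had a null mean under 1 RPM. They passed the limit through other genotypes, so their direction is no support. PAX6, a regulator of eye and forebrain, named as a defining marker, was at 8.48, 8.11 and 3.37 RPM in WT and 0.510, 1.76 and 0.920 RPM in the null libraries (log2 fold change -2.57 ± 0.50, adjusted p = 0.0023). POU3F2 was at 6.62, 14.05 and 2.45 RPM in WT and 0.510, 0.507 and 0.119 RPM in the null libraries (log2 fold change -3.85 ± 0.62, adjusted p = 7.5e-04), and PAX3, of the dorsal neural tube, at 5.24, 7.58 and 2.23 RPM in WT and 0.633, 0.807 and 0.534 RPM in the null libraries (log2 fold change -2.61 ± 0.47, adjusted p = 0.0016). Neither overlapped. OLIG3 was at 47.5, 70.5 and 83.8 RPM in WT and 17.6, 6.74 and 18.3 RPM in the null libraries, without overlap but not called (log2 fold change -2.33 ± 0.90, adjusted p = 0.066, and 0.0056 with the block), and NKX6-1 at 15.8, 11.1 and 7.25 RPM in WT and 19.9, 13.1 and 16.3 RPM in the null libraries was not called either (log2 fold change 0.57 ± 0.30, adjusted p = 0.17). SOX1 and PAX6, the expressed 2 of the 6 neuroectoderm markers, brought the summed marker level from 7.71 to 18.8 RPM in WT down to 2.14 to 3.40 RPM in the null libraries, and to 1.02 to 1.29 RPM in the Null+EZH2 libraries.

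Neuronal and synaptic genes were lower in 10 of 22 expressed members (45.5%) and higher in 2 (9.09%), beside 21.4% and 10.5% of all members. The median was -0.90, or -0.78 after rescaling. ROBO2, an axon guidance receptor, was at 3.86, 6.999 and 1.99 RPM in WT and 0.405, 0.338 and 0.178 RPM in the null libraries (log2 fold change -3.30 ± 0.48, adjusted p = 4.1e-04). NETO1, an accessory protein of glutamate receptors, had 1 read in the null libraries against 1.60, 0.685 and 0.852 RPM in WT, a ratio of 152 (95% counting interval 26.9 to 6062). The 2 higher genes were LRRTM1, at 1.33, 0.431 and 0.459 RPM in WT and 1.85, 3.64 and 2.85 RPM in the null libraries (log2 fold change 1.89 ± 0.45, adjusted p = 0.0072), and LRFN5, at 3.55, 9.99 and 5.64 RPM in WT and 15.7, 14.9 and 17.8 RPM in the null libraries (log2 fold change 1.44 ± 0.35, adjusted p = 0.0084), both synaptic adhesion proteins. With KHDRBS2, the 1 gene of the list without a read in the null libraries, set to its bound, the median stayed at -0.90. ROBO2, NETO1 and KHDRBS2 had a null mean under 1 RPM, and LRRTM1 a WT mean under 1 RPM, so their direction is no support.

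BMP and TGF-beta genes rose in 7 of 17 expressed members (41.2%) and fell in 2 (11.8%), beside 10.5% and 21.4% of all members. The median was 0.83, or 0.95 after rescaling. Besides BMP4, SMAD7, an inhibitor induced by the pathway, was at 5.73, 5.33 and 5.29 RPM in WT and 33.1, 30.8 and 32.2 RPM in the null libraries (log2 fold change 2.53 ± 0.41, adjusted p = 8.3e-04), without overlap. FST, which binds and inhibits activin, fell from 292, 340.5 and 309 RPM in WT to 68.1, 66.5 and 64.9 RPM in the null libraries (log2 fold change -2.23 ± 0.27, adjusted p = 1.2e-04), and ID2, an inhibitor of helix-loop-helix factors, from 61.9, 66.3 and 68.3 to 16.96, 18.3 and 20.9 RPM (log2 fold change -1.80 ± 0.40, adjusted p = 0.0054). Its relative ID3 overlapped at 59.2, 66.7 and 43.7 RPM in WT and 39.9, 52.9 and 55.004 RPM in the null libraries (log2 fold change -0.19 ± 0.23, adjusted p = 0.55), while ID1 and ID4 were among those that rose, with BAMBI and TGFB1.

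Of 17 WNT ligands and antagonists, 2 were higher (11.8%) and 5 lower (29.4%), not far from the 10.5% and 21.4% of all members (median -0.59, or -0.47 after rescaling). WNT3 was at 7.504, 8.98 and 6.36 RPM in WT and 29.4, 37.4 and 39.2 RPM in the null libraries (log2 fold change 2.203 ± 0.55, adjusted p = 0.0097) and WNT5A at 7.06, 4.72 and 6.32 RPM in WT and 8.99, 21.7 and 16.4 RPM in the null libraries (log2 fold change 1.29 ± 0.37, adjusted p = 0.02). SFRP1, a secreted WNT antagonist, was at 466, 223 and 346 RPM in WT and 82.2, 64.4 and 51.6 RPM in the null libraries (log2 fold change -2.35 ± 0.25, adjusted p = 6.0e-05), and WNT4 at 17.8, 1.45 and 4.50 RPM in WT and 0.369, 0.357 and 0.534 RPM in the null libraries (log2 fold change -3.29 ± 0.86, adjusted p = 0.012). WNT5A, WNT2B and WNT10B lost their calls, respectively, without null 2, null 3 or WT 2 (adjusted p = 0.06 to 0.093), without null 1, null 2, null 3, WT 1 or WT 3 (adjusted p = 0.055 to 0.18), with no filter on low values (adjusted p = 0.064), after median ratio rescaling (adjusted p = 0.066), with the null and WT libraries alone (adjusted p = 0.067) and by voom on the recovered reads (adjusted p = 0.05), and without null 1, null 2, WT 2 or WT 3 (adjusted p = 0.072 to 0.11). The number lower was 2 without null 1 or null 2 and 3 without any other library, and the number higher was 1 without null 2, null 3 or WT 2.

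Cell cycle inhibitors were higher in 3 of 6 expressed members (50%) and lower in 1 (16.7%), beside 10.5% and 21.4% of all members. Of the 3, CDKN2A and CDKN2B were under 1 RPM in WT and passed the limit through other genotypes, so their direction is no support. CDKN2A, which encodes p16 and ARF, was at 0.444, 0.456 and 0.328 RPM in WT and 10.03, 14.1 and 14.96 RPM in the null libraries (log2 fold change 4.68 ± 0.32, adjusted p = 5.1e-06). CDKN2B, the neighbouring gene for p15, had 2 reads in the WT libraries together and was at 1.27, 9.37 and 3.41 RPM in the null libraries, a null to WT ratio of 311 (95% counting interval 85.7 to 2570.2). A non-coding gene of clone-based name overlaps both, so reads may be shared. CDKN1A, the p53 target p21, was at 2.80, 7.15 and 5.64 RPM in WT and 13.5, 19.4 and 14.8 RPM in the null libraries (log2 fold change 1.68 ± 0.51, adjusted p = 0.025), and its call was lost without null 2, null 3 or WT 1 (adjusted p = 0.056 to 0.10). CDKN1B fell, at 20.8, 22.6 and 21.5 RPM in WT and 14.2, 14.2 and 14.04 RPM in the null libraries (log2 fold change -0.61 ± 0.16, adjusted p = 0.015), a call lost without WT 2 (adjusted p = 0.054) and after median ratio rescaling (adjusted p = 0.061). CDKN1C was not called at 16.5, 29.4 and 33.3 RPM in WT and 11.03, 21.5 and 20.7 RPM in the null libraries (log2 fold change -0.57 ± 0.54, adjusted p = 0.45).

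Mitosis genes fell or were not called: 21 of 42 were lower (50%) and none higher, beside 21.4% and 10.5% of all members. The median was -0.61, or -0.48 after rescaling. KIF15, a spindle kinesin, was at 37.6, 36.6 and 25.3 RPM in WT and 17.9, 14.8 and 12.2 RPM in the null libraries (log2 fold change -1.14 ± 0.19, adjusted p = 9.1e-04). CDC7 is counted in this list although it is a kinase of replication origins and not of mitosis. It was at 62.3, 62.2 and 56.3 RPM in WT and 35.2, 29.4 and 27.6 RPM in the null libraries (log2 fold change -0.97 ± 0.13, adjusted p = 2.4e-04). Neither gene overlapped between the groups. CCNB1 overlapped at 169.6, 196 and 210.0 RPM in WT and 163, 159 and 177 RPM in the null libraries (log2 fold change -0.20 ± 0.18, adjusted p = 0.42). MKI67 overlapped as well at 239, 191 and 102 RPM in WT and 175, 131 and 78.9 RPM in the null libraries and was called only with the block (log2 fold change -0.46 ± 0.39, adjusted p = 0.4, and 0.0037 with the block). The count moved widely. It was 32 with the block, 11 after rescaling, 9 without null 2, 10 without WT 2, 12 without WT 1 and 13 without null 3. KIF2C and CDC25C, a further pair of the 4 with the largest change, lost their calls, respectively, without null 1, null 2, WT 2 or WT 3 (adjusted p = 0.051 to 0.079), and without null 1, null 2, WT 2 or WT 3 (adjusted p = 0.055 to 0.097) and after median ratio rescaling (adjusted p = 0.058).

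DNA replication genes were lower in 8 of 36 (22.2%), close to the 21.4% of all members, and higher in none (median -0.22, or -0.09 after rescaling). PRIM1, the primase subunit, was at 38.5, 30.2 and 33.7 RPM in WT and 16.2, 14.5 and 18.7 RPM in the null libraries (log2 fold change -1.05 ± 0.20, adjusted p = 0.0023), RFC4, a clamp loader subunit, at 60.9, 58.2 and 68.5 RPM in WT and 37.9, 31.1 and 43.9 RPM in the null libraries (log2 fold change -0.74 ± 0.17, adjusted p = 0.0071), and RPA1 at 169.6, 164 and 182 RPM in WT and 108, 97.8 and 118 RPM in the null libraries (log2 fold change -0.67 ± 0.12, adjusted p = 0.0016). MCM3, of the replicative helicase, was not called at 289, 246 and 306 RPM in WT and 244, 225 and 268 RPM in the null libraries (log2 fold change -0.19 ± 0.14, adjusted p = 0.32). The count was 5 after rescaling, with 1 then higher, 4 without null 2 or WT 1 and 5 without WT 2. Of 20 p53 and apoptosis genes 8 were higher (40%) and none lower, beside 10.5% and 21.4% of all members. The median was 0.15, or 0.28 after rescaling. GDF15 was at 0.555, 0.710 and 1.07 RPM in WT and 9.85, 14.8 and 12.6 RPM in the null libraries (log2 fold change 3.85 ± 0.40, adjusted p = 6.0e-05), PMAIP1, which encodes the apoptosis factor NOXA, at 14.01, 14.5 and 14.03 RPM in WT and 64.9, 58.9 and 54.9 RPM in the null libraries (log2 fold change 2.06 ± 0.20, adjusted p = 4.2e-05), and SPATA18 at 0.777, 0.989 and 0.546 RPM in WT and 2.71, 3.30 and 2.05 RPM in the null libraries (log2 fold change 1.69 ± 0.32, adjusted p = 0.0021). TNFRSF10B, a death receptor, was not called at 50.6, 65.96 and 53.5 RPM in WT and 53.2, 52.7 and 44.1 RPM in the null libraries (log2 fold change -0.18 ± 0.15, adjusted p = 0.38).

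**Figure D4:**
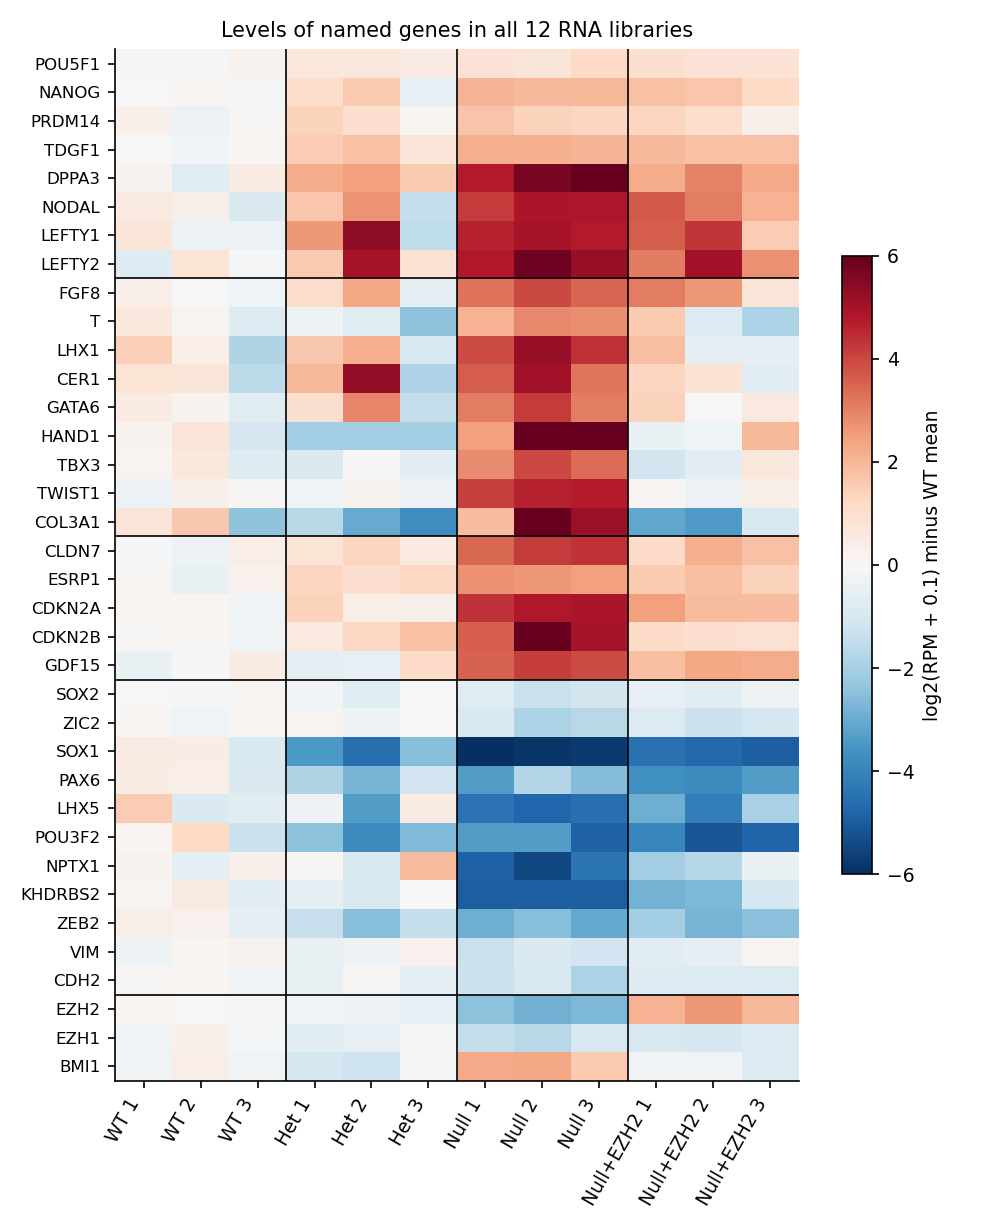
Levels of 36 named genes in the 12 RNA libraries, as log2(RPM + 0.1) minus the mean of the WT libraries (red above, blue below, clipped at 6 on either side), grouped by genotype. CDKN2A, CLDN7 and TWIST1 are high in all 3 null libraries, SOX1 and PAX6 are low in null and Null+EZH2 libraries, and CER1 and LEFTY1 in Het 2 lie above their null range.

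Comparisons with the Het and Null+EZH2 libraries would share the WT or null libraries, so for a few of these genes the levels alone are set side by side. TWIST1 was at 0.171, 0.281 and 0.160 RPM in Het and 0.257, 0.161 and 0.320 RPM in Null+EZH2 libraries, within or close to the WT range. CDKN2A was at 1.20, 0.562 and 0.516 and 2.70, 1.80 and 1.72 RPM, so that its Null+EZH2 libraries lay between WT and null. PMAIP1 was at 25.9, 34.96 and 34.2 and 60.9, 68.3 and 37.01 RPM, with Null+EZH2 1 inside the null range and Null+EZH2 2 above it. SOX1 was at 0.539, 0.194 and 1.09 and 0.206, 0.161 and 0.120 RPM, below every WT library in both. FST was at 94.9, 62.5 and 73.2 RPM in the Het libraries, close to the null level.

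Promoter marks in WT cells split the genes into classes. The ChIP table gives RPM in windows that span 2.5 kb on both sides of a start site, and for each gene the window with the most H3K27me3 in WT was used. Following the study's limits, H3K27me3 was scored where it was over 0.1 log2 RPKM (here RPM per kilobase) with input under 0.1. The choice of window was not the study's, so the classes are not its set of promoters. Both H3K27me3 and H3K4me3 were scored at 2840 genes, H3K27me3 alone at 314, H3K4me3 alone at 8236 and neither at 3511, and 16 had no window. Genes with both marks were called higher in 535 cases (18.8%) and lower in 628 (22.1%). Genes with H3K27me3 alone were higher in 64 (20.4%) and lower in 56 (17.8%), genes with H3K4me3 alone in 597 (7.25%) and 1768 (21.5%), and genes with neither mark in 369 (10.5%) and 735 (20.9%). The share called higher thus differed more between the classes than the share called lower.

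Genes with both marks made up 34.1% of the genes called higher and 19.7% of those called lower, beside 19.04% of all members. The shares by class include members under 1 RPM in WT. Those passed the limit through other genotypes, so their direction is no support. Between 1 and 10 RPM in WT, genes with both marks were 46.3% of the higher, 28.9% of the lower and 30.3% of all genes. Between 10 and 100 RPM they were 20.6%, 15.5% and 12.6%. Of the genes with both marks, 1677 were not called. Taking only the promoter listed first, the class with both marks held 1677 genes and that with neither 6419. The share higher with both marks was then 20.2%. With a stricter H3K27me3 limit of 1 log2 RPKM it was 23.5%, and with the block it was 24.8%. By EZH2 occupancy in WT cells (1 library), genes with both marks were put in 4 groups of similar size. From lowest to highest signal, 16.7%, 17.5%, 17.3% and 23.9% were higher in null cells, and 23.8%, 23.7%, 19.6% and 21.2% lower. Their median WT levels were 6.85, 8.46, 7.48 and 4.79 RPM. The group with the most EZH2 thus also had the lowest WT level, and the part of each was not tested.

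H3K27me3 was lower in null cells at genes of every RNA class. Per the labels, the histone columns are means of 2 libraries, and they carry no replicate error, so these values are descriptions. In the class with both marks, the median window went from 10.4 RPM in WT to 0.782 RPM in null cells, below the median input of 1.31 RPM in WT and 1.33 RPM in null cells. The median log2 change of H3K27me3 was -3.91 at genes called higher, -3.61 at genes not called and -3.49 at genes called lower. For H3K27ac, a mark of active promoters, it was 0.91, 0.73 and 0.61, and for H3K4me3 0.19, 0.02 and -0.10, while input changed by 0.02. Over all members the median was -1.16 for H3K27me3, 0.46 for H3K27ac and 0.10 for H3K4me3. For H3K27me3 it was -0.91 at genes with H3K4me3 alone and -0.63 at genes with neither mark. Windows were chosen by their H3K27me3 in WT, which by itself favours a lower value in null cells. The size of this part was not tested.

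**Figure D5:**
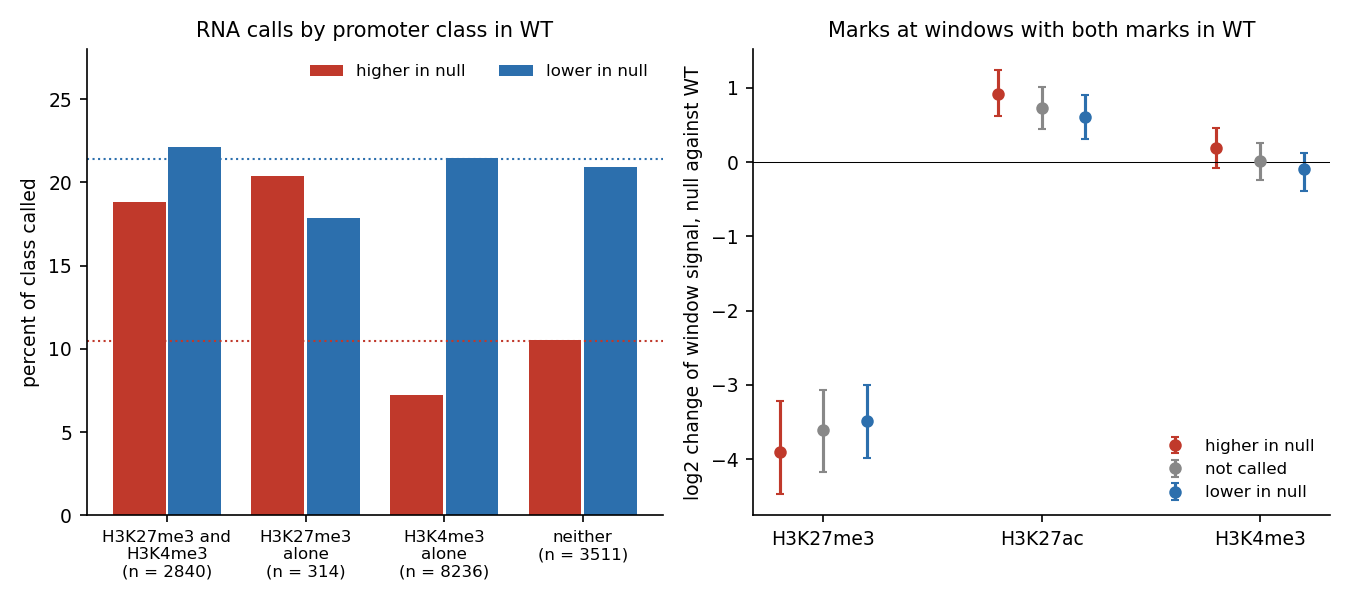
Left, percent of genes called higher or lower in null cells for each class of promoter marks in WT, with dotted lines at 10.5% and 21.4% for all genes. Right, median log2 change of the window signal of 3 marks in null relative to WT cells (bars span the interquartile range over genes) for genes with both marks, where the median change of H3K27me3 is -3.49 or lower in every RNA class.

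Single genes show the range. At HAND1, H3K27me3 in the window was 48.8 RPM in WT and 2.33 RPM in the null cells, H3K27ac went from 1.64 to 1.59 RPM and H3K4me3 from 16.2 to 12.7 RPM. At CDKN2B it was 22.1 RPM in WT and 0.501 RPM in the null, with H3K27ac from 0.762 to 2.66 RPM. At SOX1, whose RNA fell, it was 28.1 RPM in WT and 2.77 RPM in the null, with H3K27ac from 0.548 to 0.629 RPM and H3K4me3 from 13.4 to 5.27 RPM. H3K27me3 was thus lower at 2 genes that rose and at 1 that fell. DPPA3, among the 4 most raised genes, had 1.06 RPM in WT and 0.938 RPM in the null, H3K27ac from 2.18 to 3.07 RPM and H3K4me3 from 4.38 to 3.66 RPM.

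These 4 promoters are shown because they differ in CpG content, a feature of Polycomb targets. The sequences are the 250 bases upstream of the start in RefSeq (GRCh38.p14), with each CpG in capitals. They hold 16 CpG at HAND1 (chr5:154478228-154478477, minus strand), 18 at CDKN2B (chr9:22009306-22009555, minus strand), 2 at DPPA3 (chr12:7711183-7711432, plus strand) and 31 at SOX1 (chr13:112066899-112067148, plus strand), beside a median of 11 (interquartile range 3 to 23) over 35116 promoters of that table, in which 9973 of the members (66.9%) were found by symbol.
HAND1: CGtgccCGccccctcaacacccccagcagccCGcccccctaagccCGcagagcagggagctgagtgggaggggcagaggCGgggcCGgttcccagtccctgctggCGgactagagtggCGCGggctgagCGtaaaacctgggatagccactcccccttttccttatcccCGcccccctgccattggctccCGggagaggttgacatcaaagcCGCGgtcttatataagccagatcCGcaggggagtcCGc
CDKN2B: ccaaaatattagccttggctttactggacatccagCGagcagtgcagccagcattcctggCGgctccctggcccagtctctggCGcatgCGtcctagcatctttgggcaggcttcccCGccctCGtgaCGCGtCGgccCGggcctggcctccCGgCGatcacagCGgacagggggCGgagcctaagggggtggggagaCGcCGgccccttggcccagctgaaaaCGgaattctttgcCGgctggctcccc
DPPA3: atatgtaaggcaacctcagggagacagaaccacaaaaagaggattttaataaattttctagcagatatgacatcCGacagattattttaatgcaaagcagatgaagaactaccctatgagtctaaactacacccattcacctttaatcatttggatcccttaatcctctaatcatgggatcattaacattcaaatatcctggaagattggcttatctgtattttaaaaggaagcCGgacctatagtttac
SOX1: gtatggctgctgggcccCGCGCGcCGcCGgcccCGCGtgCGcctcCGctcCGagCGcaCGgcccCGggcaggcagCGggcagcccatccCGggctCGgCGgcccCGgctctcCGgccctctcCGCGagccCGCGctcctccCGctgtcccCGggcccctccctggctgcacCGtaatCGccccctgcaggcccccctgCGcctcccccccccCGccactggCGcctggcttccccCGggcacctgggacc

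CpG content was compared between the classes of marks and the calls, as a description. In 300 bases around the start, the median was 29 CpG for genes with both marks, 21 with H3K27me3 alone, 25 with H3K4me3 alone and 5 with neither, and 21 over all members. Within the class with both marks it was 30 for genes called higher and 29.5 for genes called lower. With H3K27me3 alone it was 20 and 26.5 (64 and 56 genes), with H3K4me3 alone 22 and 24, and with neither mark 5 and 5.

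The WT level was related to the calls partly through the choice of genes. Of 313 members under 1 RPM in WT, 221 were called higher and none lower, but these genes passed the limit on the mean of the 12 libraries through other genotypes, so their direction is no support. Between 1 and 10 RPM in WT, 689 of 5446 genes (12.7%) were higher and 1123 (20.6%) lower, between 10 and 100 RPM 583 of 8033 (7.26%) and 1869 (23.3%), and above 100 RPM 75 of 1125 (6.67%) and 196 (17.4%). Likewise, 484 members were under 1 RPM in the null libraries. By gene type, 10.4% of 12820 protein-coding genes were higher and 21.96% lower, and of 1737 long non-coding RNA genes 10.9% and 18.3%.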

How the data were processed

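Messenger RNA libraries (TruSeq RNA v2, a kit that does not keep strand) were sequenced from flow-sorted SSEA4-positive H9 cells of 4 genotypes. Per the labels and the study's methods, reads were trimmed (Trim Galore 0.4.0), aligned to GRCh38 (TopHat2 2.0.12 for RNA, Bowtie2 2.2.5 for ChIP-seq, per the submitters' processing notes) and counted in SeqMonk without regard to strand. The authors deposited log2 RPM, and a gene without a read was set by them to 0.9 of 1 read. ChIP-seq values are log2 RPM in windows, deposited as the authors' means over libraries of a mark and genotype. The labels list 2 libraries for each histone mark and input and 1 for EZH2 in WT cells. The study's text gives a larger number of ChIP replicates than the labels, and the difference was not resolved here. Every column was matched to a sample label. Values were returned to RPM, and values equal to 0.9 of 1 read were set to 0. Below 1000 reads all RNA values were whole reads within 0.02 of a read, so reads could be recovered.

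The linear model and moderated test of limma 3.58.1, with a variance trend (R 4.3.3), were run on log2(RPM + 0.1), which understates changes of low genes. All 12 libraries entered the fit, and the contrast was null minus WT. The 20608 genes whose mean reached 0.1 RPM were fitted and adjusted together (Benjamini-Hochberg), and genes were called at an adjusted p under 0.05. Gene lists are described by counts and medians, without a set test. Genes named are EZH2 and the other PRC2 core subunits, the 12 most positive and 12 most negative called genes without overlap, and in each list up to 4 called genes with the largest change, up to 2 genes not called with the highest level, and any gene needed to name a count of 5 or fewer. Exceptions are marked in the text, and a few genes that the rule names are not reported here. The members, gene lists and tests were chosen with earlier results of these data known. Intervals of ratios of reads are exact 95% binomial intervals and cover counting error only.

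The alternatives were a pseudocount of 0.01 or 1 RPM, a filter at a mean of 1 RPM or none, median ratio rescaling, a fit of the null and WT libraries alone, the library number as a block, voom on recovered reads, and each null or WT library left out. Libraries with the same number deviated together from their genotype means. Null and WT libraries of the same number correlated at 0.30 to 0.63 (0.13 to 0.69 over all genotypes). Those of different numbers correlated at -0.45 to 0.17 (-0.60 to 0.33 over all genotypes). Over all genotypes the 2 ranges thus overlapped. The numbers were therefore taken to pair the libraries in the alternative with a block. The main fit had no block, because the methods name no pairing, so some genes it did not call were called with the block. The labels do not say what a number stands for. The fitting step was tested on simulated data. Genes of the X and Y chromosomes entered the fit and are not described, and the H3K4me1 columns were not used here.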

Additional observations from a re-analysis of the deposited data

How the results depend on the processing

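Pseudocounts, filters, voom and a fit of null and WT libraries alone kept the counts within 1.5 times (1415 to 1959 higher and 2916 to 3453 lower). With the replicate block, which pairs libraries by number, 4818 genes were lower and 2333 higher, and none of the calls of the 157 genes named was lost. Leaving out 1 library gave 1022 to 1379 higher and 1961 to 2827 lower genes, with fewer samples in the fit, and null 2 and WT 2 moved the counts most. The share of genes with both promoter marks that were higher was 23.5% with the stricter H3K27me3 limit and 24.8% with the block. Among the 157 genes no direction reversed under any of these alternatives. Rescaling ended 9 calls and added 4, the block added 14, leaving out null 2 ended 25, and leaving out any other null or WT library ended 11 to 17. The medians of the PRC1 subunits (-0.10 to 0.02) and of the H3K27 and H3K4 enzymes (-0.08 to 0.04) changed sign on rescaling. Depth limited levels to a floor of 3 reads per library, 0.0528 to 0.0891 RPM in the null libraries.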

Other observations

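Further lists, not described in the report, gave the values below. Of 22 trophectoderm and amnion genes 7 were expressed, of which HAND1, GABRP, PGF and TFAP2C rose and none fell (median 1.09, or 1.22 after rescaling). GABRP, a GABA receptor subunit, was at 2.31, 3.91 and 3.45 RPM in WT and 9.87, 8.22 and 6.62 RPM in the null libraries (log2 fold change 1.34 ± 0.29, adjusted p = 0.0042), PGF, a placental growth factor, at 3.04, 2.41 and 3.45 RPM in WT and 4.17, 7.87 and 10.8 RPM in the null libraries (log2 fold change 1.24 ± 0.29, adjusted p = 0.0072), and the transcription factor TFAP2C at 8.68, 11.4 and 13.5 RPM in WT and 22.04, 22.2 and 26.9 RPM in the null libraries (log2 fold change 1.09 ± 0.33, adjusted p = 0.023). The groups did not overlap in any of these, and the call of TFAP2C was lost without null 2, null 3, WT 1 or WT 2 (adjusted p = 0.056 to 0.086). Summed trophectoderm markers were 9.21 to 10.7 RPM in WT and 15.2 to 19.5 RPM in the null libraries, with CGA at 0. PITX1, a homeobox factor of hindlimb and pituitary, was at 0.266, 0.431 and 0.153 RPM in WT and 1.99, 19.95 and 10.9 RPM in the null libraries (log2 fold change 4.40 ± 0.66, adjusted p = 4.8e-04), above WT without overlap. Of 8 expressed limb and branchial homeobox genes 2 were higher, PITX1 among them, and GBX2 was the 1 lower gene, at 25.1, 19.7 and 26.004 RPM in WT and 7.81, 10.8 and 13.9 RPM in the null libraries (log2 fold change -1.14 ± 0.40, adjusted p = 0.045), a call lost without null 1, null 2, WT 1, WT 2 or WT 3 (adjusted p = 0.073 to 0.15), with a pseudocount of 0.01 RPM (adjusted p = 0.052), with no filter on low values (adjusted p = 0.062) and after median ratio rescaling (adjusted p = 0.069).

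Of 39 HOX genes 4 were expressed, and HOXB1, a gene of the early hindbrain, was lower at 13.8, 35.8 and 7.65 RPM in WT and 2.78, 2.97 and 4.87 RPM in the null libraries (log2 fold change -2.15 ± 0.51, adjusted p = 0.0075), and the others were not called. Of 8 expressed FOX genes, FOXQ1 (log2 fold change 4.75 ± 0.87, adjusted p = 0.0017), FOXD3 (log2 fold change 2.61 ± 0.67, adjusted p = 0.011) and FOXD1 (log2 fold change 2.56 ± 0.58, adjusted p = 0.0059) rose and FOXB1 (log2 fold change -1.32 ± 0.30, adjusted p = 0.0057) fell. FOXQ1 was at 0.0666, 0.178 and 0.175 RPM in WT and 3.50, 14.02 and 4.72 RPM in the null libraries. FOXD3 lost its call without WT 2 (adjusted p = 0.053), and with the block 5 FOX genes were higher. Among 15 expressed GATA and SOX genes, GATA4, GATA6, SOX4, SOX15 and SOX17 rose and SOX1, SOX2, SOX5, SOX9, SOX11 and SOX21 fell, and 3 rose without null 2, WT 2 or WT 3. SOX4 was at 47.2, 55.1 and 42.8 RPM in WT and 98.9, 97.4 and 77.1 RPM in the null libraries (log2 fold change 0.91 ± 0.20, adjusted p = 0.0046), without overlap. Of 6 expressed T-box genes T and TBX3 rose, and TBX3 alone was called without null 2, null 3, WT 2 or WT 3. EOMES, a T-box factor of the streak, was at 15.9, 11.4 and 5.004 RPM in WT and 41.9, 45.4 and 23.7 RPM in the null libraries, without overlap but not called (log2 fold change 1.87 ± 0.84, adjusted p = 0.11, and 0.0085 with the block).

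The clustered protocadherins, cell surface proteins of neurons, split by cluster. Of 38 expressed genes, 13 were higher, all of the alpha cluster, and 22 were lower, all of the gamma cluster. Genes of a cluster share 3' exons, so their values are not independent. PCDHGB6 was at 74.2, 72.04 and 59.3 RPM in WT and 27.6, 24.1 and 25.3 RPM in the null libraries (log2 fold change -1.41 ± 0.17, adjusted p = 1.4e-04), and PCDHGC3 at 72.4, 70.9 and 59.9 RPM in WT and 29.9, 25.9 and 27.2 RPM in the null libraries (log2 fold change -1.28 ± 0.16, adjusted p = 1.9e-04). PCDHA12 was not called at 13.1, 12.9 and 11.95 RPM in WT and 23.03, 23.2 and 14.6 RPM in the null libraries (log2 fold change 0.65 ± 0.25, adjusted p = 0.068). The number higher was 3 without null 2, 7 without null 1 and 8 without WT 1.

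Of 17 expressed imprinted genes, expressed from 1 parental allele, 4 were higher (23.5%) and 5 lower (29.4%), beside 10.5% and 21.4% of all members. Their median was 0.00, or 0.13 after rescaling, and 2 were higher without null 2, null 3, WT 1 or WT 3. DLK1 was at 119, 78.8 and 67.6 RPM in WT and 2.83, 4.54 and 9.74 RPM in the null libraries (log2 fold change -4.07 ± 0.84, adjusted p = 0.0034) and PHLDA2 at 1.49, 1.98 and 2.38 RPM in WT and 11.1, 17.2 and 21.1 RPM in the null libraries (log2 fold change 2.99 ± 0.36, adjusted p = 1.4e-04), both without overlap. BLCAP rose (log2 fold change 0.75 ± 0.12, adjusted p = 7.1e-04), and PLAGL1 (log2 fold change -2.25 ± 0.38, adjusted p = 0.0011), L3MBTL1 (log2 fold change -1.20 ± 0.25, adjusted p = 0.0037), PEG10 (log2 fold change -0.73 ± 0.15, adjusted p = 0.004) and SNRPN (log2 fold change -0.50 ± 0.16, adjusted p = 0.034) fell. SNRPN shares its transcript with SNURF, and its call was lost without null 1, null 2, WT 1 or WT 3 (adjusted p = 0.08 to 0.14), with no filter on low values (adjusted p = 0.052) and after median ratio rescaling (adjusted p = 0.12). IGF2, a growth factor, was at 3.89, 9.53 and 2.82 RPM in WT and 8.81, 66.8 and 60.2 RPM in the null libraries (log2 fold change 2.77 ± 0.79, adjusted p = 0.019), and its neighbour H19, a non-coding RNA, at 12.4, 27.1 and 12.4 RPM in WT and 16.3, 117 and 160.1 RPM in the null libraries (log2 fold change 2.06 ± 0.69, adjusted p = 0.039). In both, null 1 lay within the WT range, and the calls were lost, respectively, without null 2, null 3, WT 1 or WT 3 (adjusted p = 0.056 to 0.086), and without null 2, null 3, WT 1 or WT 3 (adjusted p = 0.11 to 0.16), with no filter on low values (adjusted p = 0.055) and with the null and WT libraries alone (adjusted p = 0.054). IGF2 overlaps the read-through gene INS-IGF2.

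Of 8 expressed germline genes DAZL, DMC1, MSH5 and STK31 fell and REC8 rose. DAZL, an RNA-binding protein of germ cells, was at 3.29, 1.75 and 2.19 RPM in WT and 0.422, 0.131 and 0.119 RPM in the null libraries (log2 fold change -3.03 ± 0.51, adjusted p = 0.001), and DMC1, the meiotic recombinase, at 4.71, 5.48 and 6.01 RPM in WT and 1.88, 1.88 and 2.02 RPM in the null libraries (log2 fold change -1.43 ± 0.27, adjusted p = 0.002). REC8 (log2 fold change 0.90 ± 0.32, adjusted p = 0.046) lost its call without null 1, null 2, null 3, WT 1, WT 2 or WT 3 (adjusted p = 0.054 to 0.19), with no filter on low values (adjusted p = 0.072) and with the null and WT libraries alone (adjusted p = 0.055). Of 11 MHC class I genes TAPBP alone was lower (log2 fold change -0.65 ± 0.18, adjusted p = 0.017), a call lost without null 2, WT 1 or WT 3 (adjusted p = 0.058 to 0.083). With the block 3 were higher and 2 lower. None of the 51 cytosolic ribosomal protein genes was called by limma (median -0.30, or -0.17 after rescaling), whereas 21 were lower with the block and 2 without null 3. RPL3 was at 1847, 2059.5 and 2187 RPM in WT and 1215, 1284 and 1709.8 RPM in the null libraries, below WT in every library (log2 fold change -0.55 ± 0.21, adjusted p = 0.068).

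By chromosome the median log2 fold change ran from -0.28 on chromosome 13 to -0.01 on chromosome 19. Of 272 bins of 5 Mb with at least 20 genes, the bin on chromosome 21 from 40 to 45 Mb, singled out after its values were seen, had the most positive median, 0.44. It held 48 genes, 16 of them higher and 1 lower, among them ERVH48-1, DNMT3L, RIPK4, AIRE and ITGB2, and 20 were higher after rescaling. Median ChIP input over its 477 windows changed by 0.02 on the log2 scale between WT and null cells. The next bin, on chromosome 1 from 225 to 230 Mb, had a median of 0.32, and the lowest, on chromosome 3 from 140 to 145 Mb, one of -0.67. Input was not even everywhere. On chromosome 17 from 45 to 85 Mb it was lower in null cells, by -0.23 to -0.16 per bin. RNA medians of those bins were -0.42 to -0.05. On chromosome 15 from 85 to 90 Mb input changed by 0.22, with an RNA median of 0.23. Whether input and RNA changes were related was not tested.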
